A study of Caenorhabditis elegans with 2 samples.

Results

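Autosomal intergenic regions far from gene starts were taken from a chromatin immunoprecipitation sequencing (ChIP-seq) map of eGFP-tagged NHR-77 in the nematode Caenorhabditis elegans, made from whole larvae of the L2 stage. Of the 30000 regions that the authors listed for both replicates pooled, 6281 met the rule: a summit on an autosome, outside every protein-coding gene body, more than 500 bp from the 5′ end of every protein-coding gene, and more than 500 bp from every annotated tRNA, snRNA, snoRNA, rRNA or miRNA gene. Of these, 52 (0.828%) were also in the authors' thresholded list of 415 peaks, against 1.38% of all pooled regions and 1.32% of the autosomal ones, and these 52 are called intergenic peaks here. The summit is the position that the authors' peak caller marked within a region. The rule used only positions and the annotation, not the signal.

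The study held 1 group of 2 biological replicates: strain OP353, which carries the transgene insertion wgIs353 in an unc-119(tm4063) III background, with both sexes pooled and whole larvae as the material. The labels give nhr-77 as the antibody and describe the experiment as done on the eGFP fusion, so the map is of a tagged protein made from a transgene, averaged over every tissue of the larva. No control sample was used here, and the files do not give how many reads lie behind a list, so the depth is unknown. Every share below is therefore a description of lists of regions with an exact 95% Clopper-Pearson interval that covers counting error only. Beside a count of 0, the limit given is the upper end of that interval. Regions of 1 list are not replicates, and no test was made across them.

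NHR-77 is a nuclear hormone receptor. Receptors of this kind are zinc-finger transcription factors, many of them regulated by small lipophilic ligands, and the family is greatly expanded in nematodes. The C. elegans genome is compact, and most of its mapped transcription factor binding lies close to gene starts. Intergenic sequence farther away can hold enhancers, promoters of non-coding RNA genes and repeats, and at such a place the nearest gene need not be the gene that is regulated.

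The summits of the highest intergenic peaks are shown first, because they are the places with the most signal under the rule. These are 61 bp of the reference genome (WBcel235, which is ce11, from RefSeq) centred on the summit, for the 8 peaks of the highest pooled signal on chromosomes II to V, in order of signal and named by the protein-coding genes on the left and on the right. Capitals mark the hexamer GAGAGA or its reverse complement TCTCTC, called the GA motif below.
nhl-2/tag-340, chrIII:4899888-4899948, plus strand: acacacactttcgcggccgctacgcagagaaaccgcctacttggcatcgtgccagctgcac
K12H4.6/K12H4.5, chrIII:8043928-8043988, plus strand: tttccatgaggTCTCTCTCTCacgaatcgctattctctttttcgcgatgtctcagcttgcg
F08G2.5/ins-37, chrII:13834484-13834544, plus strand: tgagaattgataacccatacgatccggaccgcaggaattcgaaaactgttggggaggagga
cysl-2/dhs-8, chrII:14497104-14497164, plus strand: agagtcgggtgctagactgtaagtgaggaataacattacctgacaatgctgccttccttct
mtm-3/xbx-5, chrIII:3801514-3801574, plus strand: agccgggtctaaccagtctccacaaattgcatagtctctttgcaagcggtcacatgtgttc
cutl-22/cmd-1, chrV:1151452-1151512, plus strand: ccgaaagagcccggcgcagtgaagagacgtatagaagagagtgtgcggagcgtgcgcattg
sgn-1/F07H5.13, chrII:8787458-8787518, plus strand: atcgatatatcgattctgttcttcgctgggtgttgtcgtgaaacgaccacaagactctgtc
cpg-4/fos-1, chrV:6000470-6000530, plus strand: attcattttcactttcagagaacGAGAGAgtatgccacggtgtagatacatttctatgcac

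Of these 8 windows 2 hold the GA motif, those of K12H4.6/K12H4.5 and cpg-4/fos-1. Windows of 200 bp hold it more often, and some peaks carry it in long arrays. The 5 peaks with the most copies in any stretch of 50 bp are shown with that stretch, read 5′ to 3′ on the strand where the motif reads GAGAGA, with GAGAGA in capitals; copies that read TCTCTC on that strand are left in lower case.
T04C4.3/fnip-2, chrIV:2219527-2219576, minus strand: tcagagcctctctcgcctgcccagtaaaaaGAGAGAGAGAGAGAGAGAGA
din-1/ghi-1, chrII:11635935-11635984, minus strand: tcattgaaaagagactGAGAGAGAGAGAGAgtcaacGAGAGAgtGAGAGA
W09D10.4/tat-3, chrIII:10720446-10720495, minus strand: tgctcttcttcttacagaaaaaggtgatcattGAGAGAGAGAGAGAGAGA
Y17G7B.17/Y17G7B.18, chrII:12102527-12102576, plus strand: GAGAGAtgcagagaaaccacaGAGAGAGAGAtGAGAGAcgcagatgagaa
srw-60/nhr-88, chrII:2974081-2974130, plus strand: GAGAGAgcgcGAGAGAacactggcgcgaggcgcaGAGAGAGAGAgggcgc

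A longer word of 10 bases recurred among the peaks. It was found after the values were seen, as the word of that length whose share among intergenic peaks most exceeded its share among the other 6229 intergenic regions. It stood within 100 bp of the summit in 11 of the 52 peaks (21.2%, interval 11.1 to 34.7), against 1.65% of the other intergenic regions and 10.2% of autosomal peaks at gene starts. For 9 of the 11 peaks, 30 bases with the word in capitals read as follows.
chw-1/egl-9, chrV:10466733-10466762, minus strand: tgagagcacgGAGACGCAGAttgtgttgga
T04C4.3/fnip-2, chrIV:2219575-2219604, plus strand: gagaaattaaGAGACGCAGAgaatagttgg
tig-3/rga-9, chrII:15263225-15263254, plus strand: gcagtgcgaaGAGACGCAGAacgtctcgca
Y17G7B.17/Y17G7B.18, chrII:12102551-12102580, plus strand: agagagatgaGAGACGCAGAtgagaaaaga
fat-1/fat-2, chrIV:13322503-13322532, minus strand: tagagacaaaGAGACGCAGAtagcacccgg
cpt-1/Y46G5A.18, chrII:12799001-12799030, plus strand: acgagacgaaGAGACGCAGActcccataga
W09D10.4/tat-3, chrIII:10720270-10720299, minus strand: gagacaattgGAGACGCAGAgatctcattg
F54F12.1/Y39E4B.6, chrIII:13061328-13061357, minus strand: aacaacgacaGAGACGCAGAtagcttgaca
znf-782/csn-4, chrIV:1070531-1070560, plus strand: taaccagcatGAGACGCAGAgagtcgcagc

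The word overlaps the GA motif in its letters, since both contain GAGA. In tig-3/rga-9, Y17G7B.17/Y17G7B.18 and cpt-1/Y46G5A.18 the centre of the word lay within 1 bp of the summit, and in fat-1/fat-2 it lay 91 bp away.

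Intergenic regions far from starts reached the thresholded list less often than regions at gene starts and more often than regions in gene bodies. The 52 of 6281 (0.828%, interval 0.619 to 1.08) stood against 197 of 5685 autosomal regions within 500 bp of a gene start (3.47%, 3.01 to 3.97) and 28 of 12146 in gene bodies (0.231%, 0.153 to 0.333). Regions within 500 bp of a short RNA gene had 49 of 551 (8.89%, 6.65 to 11.6). The same kind of intergenic region on the X chromosome had 39 of 1861 (2.10%, 1.49 to 2.85), an interval that does not overlap that of the autosomes. The 52 peaks made up 16.0% of the 326 autosomal peaks, whereas the 6281 regions made up 25.5% of the 24663 autosomal regions.

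**Figure D1:**
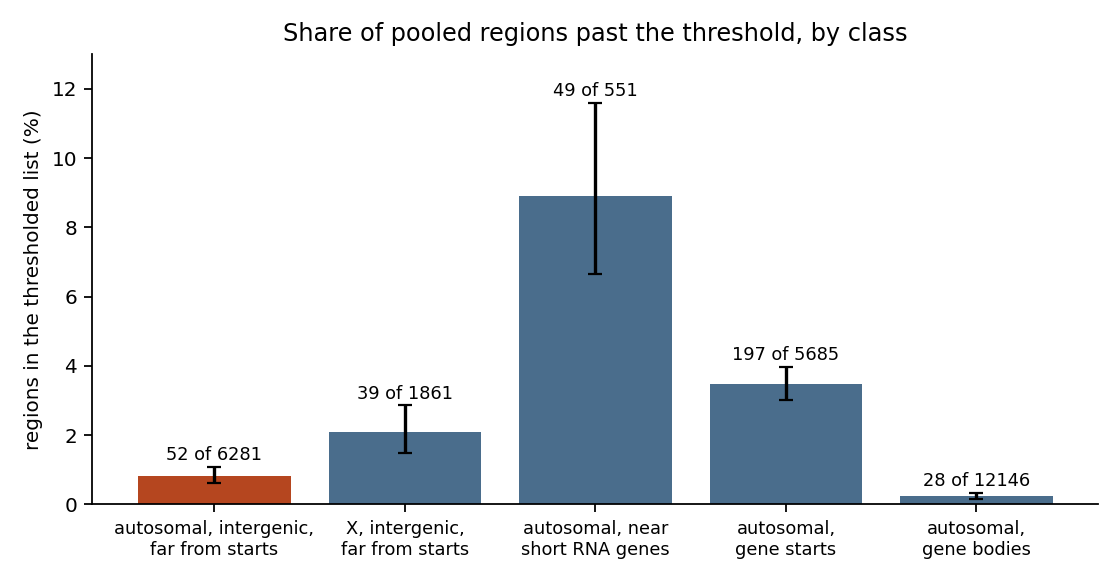
Share of pooled regions that were in the thresholded list (%, vertical axis) for 5 classes of region, with the count above each bar and exact 95% intervals as error bars. Autosomal intergenic regions (52 of 6281, left) stand above gene bodies (28 of 12146) and below the same class on X (39 of 1861), gene starts and regions near short RNA genes.

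Per length of sequence the autosomes also held fewer of these peaks than X. The rule leaves 22.9 Mb of the autosomes, or 27.7% of their length, with 274 pooled regions and 2.27 peaks per Mb. On X it leaves 6.49 Mb, with 287 pooled regions and 6.01 peaks per Mb. The density of listed regions was thus close between the autosomes and X, and that of peaks was not.

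The signal of the intergenic peaks, the authors' own score of each region on a scale that is not stated, ran from 27.4 to 86.9 with a median of 36.9. Their median was near that of autosomal gene start peaks (38.0) and below that of intergenic peaks on X (46.6, with a highest value of 244.8). The highest intergenic peak ranked 37 in the pooled list, so 0 of the 25 highest regions met the rule. Over all 6281 regions the median was 7.94, with quartiles of 6.65 and 9.97. The threshold fell at no gap in the signal: the lowest peaks, near Y59A8B.24, irld-18 and F42C5.9, had 27.5, 27.5 and 27.4, and the highest regions below it, near nhr-20, rab-5 and csnk-1, had 26.9, 26.7 and 26.6.

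The 4 highest peaks stood above the rest with signals over 70 and ranked within the first 100 regions of each replicate. The highest lay at chrI:16851-17180 (signal 86.9, ranks 28 in replicate 1 and 44 in replicate 2), between the 3′ ends of nlp-40, which encodes a neuropeptide-like protein released by the intestine in the defecation rhythm, and rcor-1, a homologue of the REST corepressor. Here and below, ranks are among nuclear regions of the replicate's own list by its own score, with replicate 1 before replicate 2. The second, at chrIII:4899753-4900082 (78.8, ranks 92 and 37), lay 590 bp from the start of tag-340 and 833 bp from nhl-2, a TRIM-NHL protein that acts with microRNAs. The third, at chrIII:8043793-8044122 (75.8, ranks 40 and 48), lay 529 bp from the start of K12H4.5. The peak at chrII:13834349-13834678 (72.1, ranks 66 and 47) lay between F08G2.5 and ins-37, a gene for an insulin-like peptide. It was 883 bp from the start of F08G2.5 and 587 bp from the 3′ end of ins-37. All 4 were among the 415 highest nuclear regions of both replicates.

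A second group with signals from 50.2 to 58.3 was also high in both replicates. One lay at chrII:14496969-14497298 (58.3, ranks 93 and 77), between cysl-2, a cysteine synthase-like enzyme, and dhs-8, a short-chain dehydrogenase. A weaker peak stood 1634 bp away in the same gap (32.0) and parted the replicates, with rank 4515 in replicate 1 and 240 in replicate 2. The peak between mfb-1, an F-box gene, and sup-17, an ADAM protease of Notch signalling, had 54.8 with ranks 54 and 121. Beside mtm-3, a myotubularin phosphatase, the signal was 53.3 with ranks 117 and 85. The peak near F40E3.3 and mage-1 (50.2, ranks 116 and 86) was the only 1 of the 52 with words of 36 bases that occur elsewhere in the genome, which made up 38.8% of its words.

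From the ninth peak down, ranks in replicate 1 varied more than those in replicate 2. The peak over linc-128, between cutl-22 and the calmodulin gene cmd-1, had a pooled signal of 48.0 and rank 60 in replicate 2, but rank 9152 in replicate 1. In the gap of sgn-1, a sarcoglycan gene, the order was the other way, with ranks 31 and 188 (signal 46.8). The peak 3101 bp from the start of fos-1, the AP-1 factor needed for anchor cell invasion, had ranks 310 and 101 (45.9). The peak 1753 bp from the start of egl-9, the prolyl hydroxylase that marks HIF-1 for degradation, had ranks 720 and 116 (45.3). Another lay 1847 bp from the start of hif-1, the hypoxia-inducible factor itself, with ranks 152 and 187 (40.8).

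Of the other 7 among the 20 highest peaks, 6 stood lower in replicate 1 than in replicate 2. For 5 of them the ranks in replicate 1 ran from 412 to 11159: the peaks by fnip-2, a folliculin-interacting protein (42.6, ranks 412 and 79), by pdi-3, a protein disulfide isomerase, and ubql-1, a ubiquilin (41.9, ranks 11159 and 69), by wve-1, an actin regulator of the WAVE complex (41.2, ranks 5320 and 92), by gdh-1, glutamate dehydrogenase (40.4, ranks 8312 and 135), and by rga-9 (40.1, ranks 460 and 149). The peaks by lin-41, the TRIM-NHL protein of larval timing (40.1, ranks 360 and 158), and by mtrr-1, methionine synthase reductase (40.8, ranks 163 and 202), were high in both.

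The remaining 32 peaks had signals from 27.4 to 39.5, and the ones named here were chosen after their values were seen. A pair 1561 bp apart lay upstream of din-1, a corepressor known to bind the nuclear receptor DAF-12, with signals of 36.5 (ranks 247 and 217) and 27.6 (ranks 437 and 582). The peak 2602 bp from the start of nhr-88 (31.0) was among the highest of replicate 1, at rank 61, and stood at 1353 in replicate 2. The peak by nhr-61 (37.0, ranks 68 and 384) was high in both. Between fat-1 and fat-2, desaturases of polyunsaturated fatty acid synthesis, the signal was 34.3 with ranks 180 and 435. The peak 904 bp from cbp-1, the CBP/p300 acetyltransferase, had 35.5 with ranks 196 and 338. In contrast, the peaks by atfs-1, the factor of the mitochondrial stress response (30.2, ranks 3527 and 226), by hsp-12.2, of the small heat shock family (28.6, ranks 11097 and 289), and by dpy-21, a histone demethylase of dosage compensation (27.5, ranks 1587 and 281), were high in replicate 2 alone. The dpy-21 peak lay 2214 bp from dpy-21 but 542 bp from the start of Y59A8B.24. The atfs-1 peak lay 2542 bp past the 3′ end of atfs-1, and its nearest start was that of T16A9.3, at 5272 bp.

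Replicate 2 thus carried more of the intergenic peaks than replicate 1, as it did of all 415 peaks. Of the 52, 20 (38.5%, interval 25.3 to 53.0) had a summit of the 415 highest nuclear regions within 100 bp in both replicates, 23 had one in replicate 2 alone, 6 in replicate 1 alone and 3 in no replicate. The share in both was 66.7% (49.8 to 80.9) for the 39 intergenic peaks on X and 46.2% (39.1 to 53.4) for the 197 autosomal gene start peaks. It was 42.9% of 28 in autosomal gene bodies and 28.6% of 49 near autosomal short RNA genes. Over all 415 peaks it was 43.6% (38.8 to 48.5), with 154 in replicate 2 alone and 41 in replicate 1 alone. The split of the intergenic peaks was near that of the whole list. The share was lower among peaks of lower signal: 14 of the 20 highest intergenic peaks were high in both, against 6 of the other 32. The pooled signal comes from the same 2 replicates, so these measures go together in part by construction. Ranks in replicate 1 ran from 28 to 15258 with a median of 377 over the 51 peaks with an overlapping region there, and 15 were over 1000. Ranks in replicate 2 ran from 37 to 1353 with a median of 225.5, and 1 was over 1000. Spearman's rho between the replicates' signals was 0.04 over the 51 peaks, 0.34 over 195 autosomal gene start peaks and 0.85 over 39 intergenic peaks on X. Over the 1279 autosomal intergenic regions with an overlapping region in both replicates, peaks or not, it was 0.21. Peaks are selected by pooled signal, which bears on rho among them. These values are across regions and describe the lists only, and peaks on X span a wider range of signal.

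**Figure D2:**
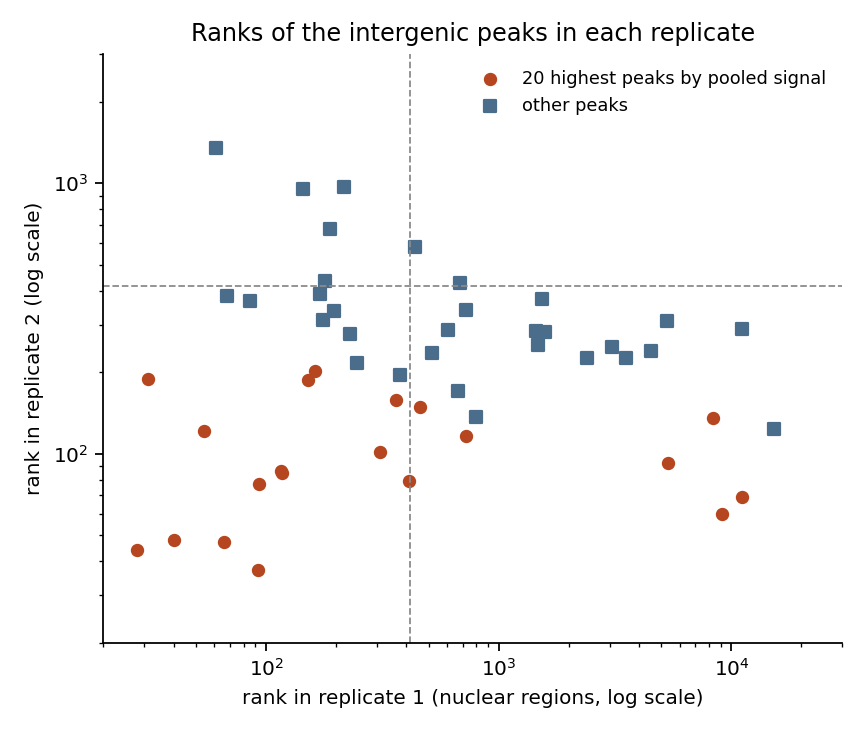
Rank of each intergenic peak in replicate 1 (horizontal, nuclear regions, log scale) and in replicate 2 (vertical, log scale); circles are the 20 highest peaks by pooled signal, squares the others, and dashed lines mark rank 415. Of 51 peaks with a region in both, ranks in replicate 1 reach 15258, while those in replicate 2 reach 1353.

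Each replicate alone also listed these regions less often than its regions as a whole. Among the 415 highest nuclear regions of replicate 1, 57 of its 4944 regions that met the rule (1.15%, interval 0.874 to 1.49) were included, against 1.79% of all its nuclear regions. In replicate 2 it was 59 of 6086 (0.969%, 0.739 to 1.25), against 1.38%.

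Of the 10 motifs searched, the GA motif differed most between the intergenic peaks and the other intergenic regions in percentage points. The motifs were chosen with earlier results of these data known, so this order is not an independent result. In the 200 bp centred on the summit, 37 of the 52 peaks held it (71.2%, interval 56.9 to 82.9), against 879 of the 6229 other intergenic regions (14.1%, 13.3 to 15.0). Read the other way, 4.04% of the 916 intergenic regions with the motif were peaks (2.86 to 5.52), against 0.280% of the 5365 without it (0.157 to 0.461). The motif was searched as GAGAGA on both strands, and overlapping copies in a run count separately. It stood in 13.1% of windows of the same length over all 30000 pooled regions. GA repeats are known in Drosophila as the sites of the GAGA factor, and a match here is a description of letters, not of a bound factor.

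Peaks of other classes held the motif to different extents. In autosomal gene bodies 19 of 28 peaks had it (67.9%, 47.6 to 84.1), at autosomal gene starts 52 of 197 (26.4%, 20.4 to 33.1), near short RNA genes 12 of 49 (24.5%, 13.3 to 38.9), and in intergenic sequence on X 16 of 39 (41.0%, 25.6 to 57.9). The share in intergenic peaks was thus close to that in gene bodies, and its interval did not overlap that of gene starts. The interval did overlap that on X by about 1 percentage point.

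The motif was concentrated round the summit. In each bin of 50 bp within 100 bp of it, 23.1% to 32.7% of the intergenic peaks held a copy, against 4.27% to 4.70% of the other intergenic regions and 6.60% to 9.64% of autosomal gene start peaks. Beyond 300 bp the peaks had 0% to 3.85% per bin, against 2.99% to 3.48% of the other intergenic regions. The 3 peaks with the most copies within 100 bp of the summit were the higher of the pair by din-1, with 16, the peak by fnip-2, with 13, and the peak by tat-3, with 12, and 21 of the 52 peaks had at least 2.

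**Figure D3:**
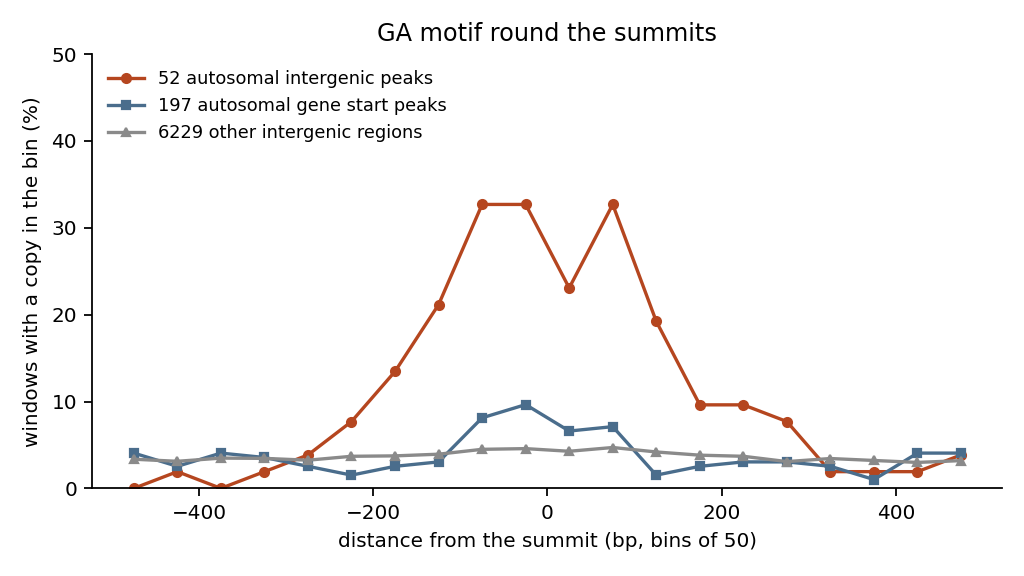
Share of windows with at least 1 copy of the GA motif (%, vertical) by distance from the summit in bins of 50 bp (horizontal), for 52 autosomal intergenic peaks (circles), 197 autosomal gene start peaks (squares) and 6229 other intergenic regions (triangles). The intergenic peaks reach 32.7% within 100 bp of the summit and are at most 3.85% beyond 300 bp, where the other intergenic regions are between 2.99% and 3.48%.

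GC content moved with both the motif and the peaks. The windows of the intergenic peaks had 47.1% ± 7.04 GC (SD, n = 52 regions), against 33.6% ± 6.87 in the other intergenic regions (n = 6229). In each of the 4 bins of GC content above 35% the motif was more frequent in the peaks. From 45% to 50% GC, 11 of 12 peaks held it (91.7%, interval 61.5 to 99.8), against 45.2% of 299 other regions (39.4 to 51.0). At 50% or more it was 17 of 21 peaks (81.0%, 58.1 to 94.6), against 48.7% of 113 (39.2 to 58.3), and the ends of these intervals meet. From 35% to 40% and from 40% to 45% it was 4 of 9 and 5 of 9, against 17.6% of 1356 and 26.6% of 670, and these intervals overlap. The 1 peak under 35%, by acbp-6, lacked the motif, as did most of the 3791 other regions there. GC content itself went with the share of peaks: 21 of 134 regions with 50% GC or more were peaks (15.7%), against 1 of 3792 under 35%. Among regions of 50% or more, 23.6% of 72 with the motif were peaks, against 6.45% of 62 without it. What part GC content plays in the signal was not tested.

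**Figure D4:**
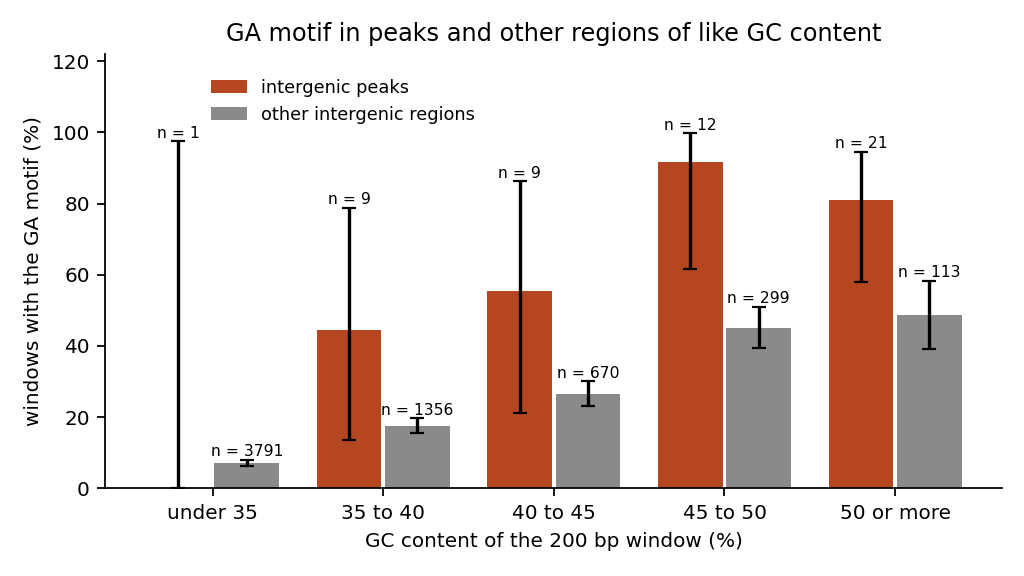
Share of 200 bp windows with the GA motif (%, vertical) by GC content of the window (horizontal), for intergenic peaks (left bars) and other intergenic regions (right bars), with the number of regions above each bar and exact 95% intervals. From 45% GC upwards the shares are 91.7% and 81.0% in peaks, against 45.2% and 48.7% in other regions.

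Below the threshold the motif was less frequent at lower signal. It stood in 25 of the 48 regions ranked 53 to 100 among the 6281 by signal (52.1%, interval 37.2 to 66.7), in 39.0% of the next 100, in 24.0% of the next 200 and in 18.0% of the next 400. The 4681 lowest regions had 12.4%. Mean GC content was lower alongside, at 47.1% in the peaks, 41.1% ± 8.69 in ranks 53 to 100 (SD, n = 48 regions) and 33.2% ± 6.61 in the lowest 4681.

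**Figure D5:**
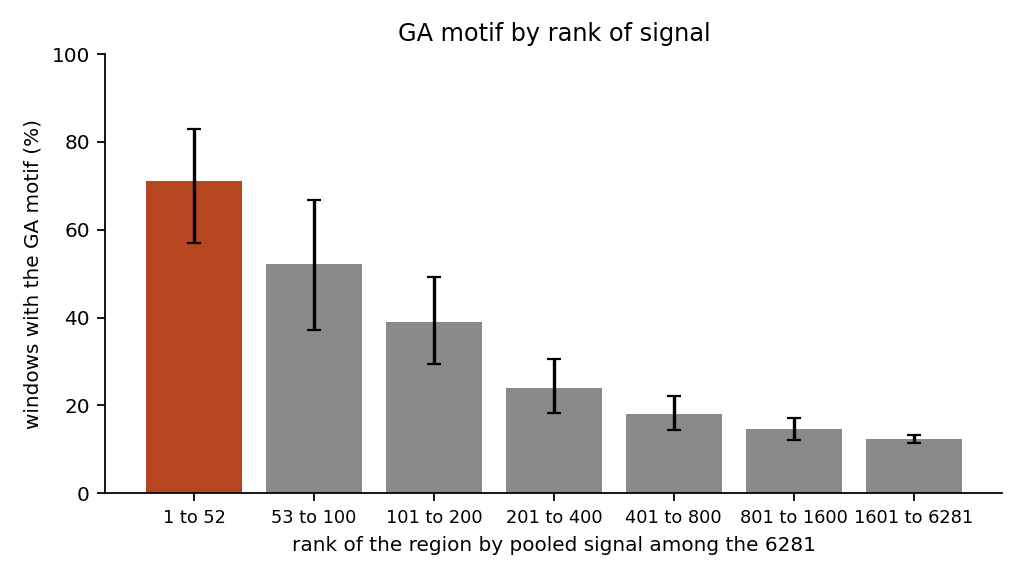
Share of windows with the GA motif (%, vertical, exact 95% intervals) by rank of pooled signal among the 6281 intergenic regions (horizontal). The share is 71.2% in the 52 peaks at the left and 12.4% in the lowest 4681 regions at the right.

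Both replicates showed the motif on their own. Of the regions of this class among the 415 highest nuclear regions of a replicate, 31 of 57 held it in replicate 1 (54.4%, interval 40.7 to 67.6), against 13.3% of the class's other regions there. In replicate 2 it was 44 of 59 (74.6%, 61.6 to 85.0), against 14.4%. Among those that were not within 100 bp of one of the 52 pooled peaks, 12 of 32 in replicate 1 and 11 of 17 in replicate 2 had it. It was as frequent in the 20 pooled peaks high in both replicates (14, or 70.0%) as in the other 32 (23).

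Other motifs were in few intergenic peaks. The nuclear receptor core hexamer AGGTCA was in 2 of 52 (3.85%, interval 0.469 to 13.2), against 4.94% of the other intergenic regions. In windows of 400 bp the order was the other way, with 8 of 52 (15.4%, 6.88 to 28.1), against 10.7%. The variants AGTTCA and AGTGCA were in 3 (5.77%) and 6 (11.5%), against 13.4% and 6.50%. For all 3 hexamers, in 200 bp windows, the share in the other regions lay within the interval of the peaks. The E-box CACGTG was in 6 (11.5%, 4.35 to 23.4), against 3.05%, and the run GCGCGC in 8 (15.4%, 6.88 to 28.1), against 1.54%. At gene starts GCGCGC was in 15.2% of the 197 peaks, so it went with peaks of both classes. TGATAA, the site of GATA factors, was in 6 (11.5%, 4.35 to 23.4), against 18.7%. The run TTTTTTTT was in 7 (13.5%, 5.59 to 25.8), against 28.0%, and the heat shock element GAANNTTC in 2 (3.85%, 0.469 to 13.2), against 14.6%. TGACTCA, the site of AP-1 factors, was in 0 of 52, with an exact interval that ends at 6.85%, against 2.34%. All motifs were searched on both strands of the 200 bp windows, and no match says only that these letters are not in this window.

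The intergenic peaks also held more CpG and less masked sequence than the other intergenic regions. They held 11.7 ± 4.87 CG dinucleotides per 200 bp (SD, n = 52), against 5.49 ± 3.30 in the other intergenic regions (n = 6229). Windows of higher GC content hold more CG by composition, and mean GC content was 47.1% and 33.6% in these windows. Mean GC content was also higher in peaks than in other regions of autosomal gene bodies (46.9% against 34.6%). In intergenic sequence on X it was 42.6% against 33.4%. Whether the CG counts differ beyond what GC content gives was not tested. Soft-masked bases, which mark repeats and simple sequence in the reference, made up 17.2% ± 16.6 of the windows, against 39.8% ± 24.2, and 41.5% of all sequence that meets the rule. Words of 36 bases that occur more than once in the genome were found in 1 peak (1.92%, interval 0.0487 to 10.3), against 547 other regions (8.78%). The share of the other regions lay within that interval. How the authors' alignment placed reads from such words is not given in the sources used here, so low signal there and unplaced reads cannot be told apart.

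Genes annotated as non-coding RNA (ncRNA) held a larger share of the peaks than of the other intergenic regions. The summits of 8 peaks lay in a gene annotated as ncRNA (15.4%, interval 6.88 to 28.1), against 1.85% of the other intergenic regions and 1.31% of the sequence that meets the rule. Of the regions themselves, 8 of 123 intergenic regions in ncRNA genes were peaks (6.50%, 2.85 to 12.4), against 42 of 5635 in unannotated sequence (0.745%, 0.538 to 1.01). The highest were in F26F4.14 (78.8), F08G2.13 (72.1) and in the overlapping K10H10.14 and K10H10.11 (58.3), each high in both replicates. The other ncRNA peaks were high in replicate 2 alone. Their ranks in replicate 1 were 460 (Y46E12BL.9), 720 (F22E12.10), 1447 (F25D1.10), 5286 (F42C5.14) and 11159 (VF15C11L.2). Of 52 regions in long intergenic ncRNA genes 2 were peaks, in linc-128 (48.0) and linc-91 (36.9), and the next highest, in linc-72 (20.6), was not. The peaks in linc-128 and linc-91 were also high in replicate 2 alone, with ranks of 9152 and 802 in replicate 1. No peak lay in a pseudogene, although 430 regions did. The exact interval ends at 0.854%, above the 0.828% of all 6281 regions. The highest of the regions in pseudogenes had a signal of 22.5. Regions in piRNA genes (46) and antisense RNA genes (2) held no peak either, with highest signals of 16.5 and 8.64.

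Divergent genes have starts that face the gap between them from both sides. Such gaps held 24 peaks (46.2%, interval 32.2 to 60.5), against 31.9% of the other intergenic regions and 31.0% of the sequence that meets the rule, or 3.38 peaks per Mb. Gaps between genes of 1 direction held 25 (48.1%, 34.0 to 62.4), against 56.4%, or 2.01 per Mb. Convergent gaps, which hold no start, had 3 (5.77%, 1.21 to 15.9), against 11.7%, or 0.900 per Mb, and they included the highest of the 52 peaks, by nlp-40. The lower bound of the divergent share, 32.2%, is just above the 31.9% of the other regions, and the difference was within counting error under 2 alternatives: 15 of 40 peaks beyond 1000 bp from a start (37.5%, 22.7 to 54.2), against 30.7%, and 21 of 57 of the highest regions of replicate 1 alone (36.8%, 24.4 to 50.7), against 32.3%. The gaps with peaks had a median length of 3912 bp, against 5770 bp for the other regions.

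By distance from the nearest start, peaks lay from 501 to 13336 bp from a start with a median of 1800 bp, against a median of 2068 bp for the other intergenic regions. The share of peaks was 0.888% (interval 0.459 to 1.55) between 500 and 1000 bp, 0.991% (0.578 to 1.58) up to 2000 bp, 0.747% (0.436 to 1.19) up to 5000 bp and 0.641% (0.236 to 1.39) beyond, and the intervals all overlap. The GA motif was in 5 of the 6 peaks beyond 5000 bp and in 7 of the 12 within 1000 bp.

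By chromosome, the sequence that meets the rule held 3.49 peaks per Mb on II (15 peaks), 3.04 on III (10), 3.02 on I (10), 1.43 on V (9) and 1.40 on IV (8). As a share of regions, II had 1.24% (interval 0.694 to 2.03) and IV 0.520% (0.225 to 1.02), and these intervals overlap. Chromosome arms, taken as the outer 25% of the length at each end, held 28 of the 52 peaks (53.8%, 39.5 to 67.8), against 48.1% of the other intergenic regions and 52.7% of the sequence that meets the rule. Arms held 13 of 15 peaks on II, 5 of 8 on IV, 4 of 10 on I, 3 of 10 on III and 3 of 9 on V, against 45.5% to 53.7% of the other intergenic regions of a chromosome. The GA motif was in 6 to 9 peaks of every autosome.

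Gene classes were matched by gene symbol alone, so genes of a class under other symbols were missed. The F-box gene mfb-1, whose start was nearest to a peak of signal 54.8, was missed in this way. So was the homeobox gene unc-39, nearest to a peak of 39.5. The mitochondrial ribosomal protein gene mrpl-40, nearest to a peak of 36.8, was not counted among ribosomal proteins. Of the 12 classes so matched, only nuclear receptors, with nhr-61 and nhr-88, and neuropeptides, with nlp-40, included the nearest start of a peak. These were 3 of 52 in all (5.77%, interval 1.21 to 15.9), against 13.6% of the 6281 regions, a share within that interval. Near nuclear receptor genes 2 of 123 regions were peaks (1.63%, interval 0.198 to 5.75). Chemoreceptor genes, the largest class, were nearest to 337 regions and 0 peaks, with an exact interval that ends at 1.09%. By symbol, collagens, F-box genes, C-type lectins, homeobox factors and detoxification enzymes each had 0 peaks. So did BTB and MATH genes, sperm proteins, histones and ribosomal proteins. Each of these classes had 14 to 58 regions, with exact intervals that end between 6.16% and 23.2%. These are too few regions to show a share near that of all the regions. At the genes of the transgene, no region that meets the rule lay within 20 kb of nhr-77, and 2 lay within 20 kb of unc-119, with signals of 5.81 and 9.86.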

How the data were processed

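The data were ChIP-seq region lists of 2 biological replicates in 1 group. According to the text files deposited with them, regions were called on alignments with a control, and the thresholded list was then made by the irreproducible discovery rate. Neither aligner nor peak caller is named in the sources used here. The thresholded list was exactly the 415 pooled regions of the highest signal. The signal value is a score of the authors' peak caller on a scale that is not stated, and it was compared only within a list. The −log10 q-values that the authors deposited (2.20 to 2.88 in the thresholded list) served only to check the files. Ranks were used between lists, and in replicate 1 they leave out 23 mitochondrial regions. The thresholded regions come from the pooled list, so a peak need not stand in both replicates.

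Positions are on ce11, counted from 1. Summits were set against gene 5′ ends (1 per gene) and gene bodies of the Ensembl annotation of WBcel235, and sequence was read from the RefSeq copy of that assembly. Motifs were searched in windows of 200 bp. Shares have exact 95% Clopper-Pearson intervals (scipy 1.17.1, with numpy 2.4.6, pandas 2.3.3 and Python 3.11.15). They cover counting error only. No p-value was computed. The functions were tested on simulated data with known classes, repeats and motifs. Named genes flank the 20 highest peaks, are the highest in each other annotation class, are nearest to a peak in each gene class, or belong to the transgene; other genes of lower peaks, and those just below the threshold, were named after their values were seen. The regions, lists and motifs were chosen with earlier results of these data known. Alternatives were other distances, windows, annotations, thresholds and each replicate alone.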

Additional observations from a re-analysis of the deposited data

How the results depend on the processing

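Of 85 alternative values, 65 moved by less than their counting interval or the spread between regions, and 20 moved by more. Among the distances and motif windows, the order of 2 comparisons turned: beyond 250 bp from a start the share in the thresholded list was above the 1.32% of all autosomal regions, and AGGTCA in 400 bp windows was in 15.4% of peaks, against 10.7% of the other intergenic regions. The share of these regions in the thresholded list was 1.37% beyond 250 bp and 0.398% when only the 208 highest peaks counted, and their share of autosomal peaks was 31.0% beyond 250 bp and 7.06% beyond 2000 bp. The density was 3.94 peaks per Mb beyond 250 bp. Leaving out a replicate gave shares of 0.969% to 1.15%, with the GA motif in 54.4% to 74.6% and divergent gaps at 36.8% to 45.8%. Divergent gaps were 37.5% beyond 1000 bp. Peaks high in both replicates were 23.1% with summits within 50 bp and 59.6% with the 830 highest regions of each replicate. Arms taken as the outer 33.3% at each end held 71.2% of peaks, against 65.0% of the other intergenic regions; in replicates 1 and 2 alone the arms held 50.9% and 47.5%, below the 52.7% of the sequence. Words of 25 bases that recur in the genome were in 15.4% of peaks, against 22.0%. The GA motif was in 44.2% of windows of 100 bp, against 7.85% of the other intergenic regions, and in 86.5% of windows of 400 bp, against 24.2%. With the nearest start within 2000 bp, 0% of peaks were nearest to a listed class as matched by symbol. These settings change the regions, windows or limits by construction.

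Using the 5′ ends of every transcript, an alternative chosen after the data were seen, gave 0.830%. The GC bins, signal ranks, motif shares of each replicate alone and words of 10 bases were also chosen after. The median signal was not computed from the replicates' lists, whose scores are not comparable. Depth is unknown, so a region missing from replicate 1 may lie below what its depth could show. No paired analysis was possible because there was 1 group.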
